A study of Mus musculus with 9 samples.

Results

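The genes described here encode the machinery that copies DNA in dividing cells: the MCM helicase, the sliding clamp Pcna and the ribonucleotide reductase subunit Rrm2. They were chosen by name from 8 UniGene cluster numbers (a UniGene cluster groups transcript sequences of one gene), namely Mcm2 to Mcm7, Pcna and Rrm2. Of these, 6 had a row in the deposited table of 17810 clusters: Mcm2 (Mm.16711), Mcm3 (Mm.4502), Mcm4 (Mm.1500), Mcm5 (Mm.5048), Mcm6 (Mm.4933) and Rrm2 (Mm.99), each with 1 probe set. The clusters given for Mcm7 (Mm.378150) and Pcna (Mm.7141) are not analysed here. The table carries cluster numbers without gene names, so the names are those that came with the selection and were not checked against an annotation.

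Mcm2 to Mcm7 form the ring-shaped helicase that is loaded onto replication origins before S phase and unwinds DNA at the fork. Rrm2 is the small subunit of ribonucleotide reductase, which makes the deoxynucleotides that the polymerases use, and its protein is abundant mainly in S phase. Transcripts of both kinds are classical targets of the E2F transcription factors and are widely read as markers of cycling cells. Bone marrow-derived macrophages proliferate in response to macrophage colony-stimulating factor (M-CSF), and the genes serve here as an RNA-level reading of that state. Cell numbers and DNA synthesis are not part of the table. In bulk RNA, fewer cycling cells and less RNA of these genes per cell cannot be told apart.

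Bone marrow cells from tibias and femurs of C57BL/6 mice were cultured with M-CSF at 30 ng/ml in DMEM with 10% FCS. At day 4 the medium was exchanged, and RNA was taken after 3 further days, at day 7. The dexa+IL4 group received fresh DMEM that contained 2 agents: the glucocorticoid receptor agonist dexamethasone (5e-07 M) and interleukin 4 (IL-4, 10 ng/ml). The cmB16F1 group received medium conditioned by B16F1, a mouse melanoma line. The cmB16F1+dexa+IL4 group, here called the combination, received conditioned medium with both agents. Each group had 3 arrays, 9 in all. The design as used here has no group in plain medium, and a higher level with conditioned medium and a lower level with dexamethasone and IL-4 therefore cannot be told apart in the comparison of the single arms. The labels do not say whether M-CSF was given again at the medium change, nor whether the 3 arrays of a group came from separate mice or cultures, so the p-values measure only the spread between these samples.

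The values are log2 probe-set values, normalized by the authors, and array medians lay between 7.19 and 7.25. The 27 bacterial poly-A control sets, used to judge how dim a value is, reached at most 7.00. Every value of the 6 genes lay above that level. Mcm5, at 7.28 to 7.38 in dexa+IL4, lay closest to it, and a difference measured so low on the scale may be too small. In that group Rrm2 ran from 7.37 to 7.75 and Mcm2 from 7.62 to 7.69, and the same limit applies to their differences. The level of one probe set was not set against that of another, because probe sets differ in brightness. Macrophage and other cell-type markers could not be looked up without gene names.

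The region upstream of the transcription start was available for 5 of the 6 genes (RefSeq, build GRCm38.p6), for all but Mcm4. The 250 bases before the start were searched on both strands for the E2F-type letters TTTCCCGC, TTTGGCGC, TTTCGCGC and TTTGCCGC and for the NF-Y box CCAAT. The sequences of Mcm5 and Mcm6 are shown because they hold E2F-type letters, and that of Rrm2 because this gene differed most between the groups. Each is written 5′ to 3′ in the direction of the gene, with matches in capitals. For Mcm5 the last 41 bases searched lie inside the annotated gene, which has an earlier start, and only the 209 bases before the gene are shown. The 3 sequences lie at chr8:75109259-75109467 (plus strand), chr1:128359706-128359955 (minus strand) and chr12:24708004-24708253 (plus strand).
Mcm5: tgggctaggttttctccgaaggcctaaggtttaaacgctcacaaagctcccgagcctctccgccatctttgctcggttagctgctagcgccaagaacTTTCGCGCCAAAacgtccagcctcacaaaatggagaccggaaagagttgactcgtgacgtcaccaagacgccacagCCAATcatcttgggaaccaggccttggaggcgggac
Mcm6: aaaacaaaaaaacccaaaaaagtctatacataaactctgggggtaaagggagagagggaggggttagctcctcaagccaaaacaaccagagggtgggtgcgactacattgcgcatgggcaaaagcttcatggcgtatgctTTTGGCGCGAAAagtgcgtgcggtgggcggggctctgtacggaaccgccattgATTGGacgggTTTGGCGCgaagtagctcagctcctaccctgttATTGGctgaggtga
Rrm2: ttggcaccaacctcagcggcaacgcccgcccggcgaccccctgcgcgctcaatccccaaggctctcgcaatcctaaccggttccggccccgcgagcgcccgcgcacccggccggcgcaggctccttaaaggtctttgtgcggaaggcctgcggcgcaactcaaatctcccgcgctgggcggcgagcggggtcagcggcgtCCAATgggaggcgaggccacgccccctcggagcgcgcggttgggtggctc

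Mcm6 held 3 E2F-type matches, of which a TTTGGCGC and a TTTCGCGC on the opposite strand overlap in one run of capitals, and a second TTTGGCGC begins 47 bases before the start. Mcm5 held 2, again on opposite strands of one run. Mcm2, Mcm3 and Rrm2 held none of these letters in this window. Over 32851 upstream regions of the same length, 1.86% held at least 1 of the 4 E2F-type letter strings. CCAAT stood in all 5 regions, 3 times in Mcm3, 2 times each in Mcm5 (1 of them in the bases not shown) and Mcm6 and once each in Mcm2 and Rrm2, against 33.8% of all regions with at least 1. A match describes the letters and shows no binding.

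Rrm2 showed the widest differences. On the dexa+IL4 arrays it was at 7.55, 7.75 and 7.37 for replicates 1, 2 and 3. It read 9.52, 9.47 and 8.70 on the combination arrays and 9.57, 9.20 and 8.68 on the cmB16F1 arrays. All 6 arrays with conditioned medium lay above all 3 without it. The array numbered 3 was the lowest of its group in each group, and in both groups with conditioned medium it stood well below the other arrays. Group means were 7.56 ± 0.19 for dexa+IL4, 9.23 ± 0.46 for the combination and 9.15 ± 0.45 for cmB16F1 (SD, n = 3).

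Among the helicase genes, Mcm2 read 7.62, 7.69 and 7.62 on the dexa+IL4 arrays, 8.13, 8.34 and 7.94 on those of the combination, and 8.23, 8.17 and 8.03 on those of cmB16F1. Mcm5 read 7.38, 7.37 and 7.28, then 7.81, 7.71 and 7.50, then 8.01, 7.68 and 7.74 in the same order of groups. Both genes were lowest on the 3 dexa+IL4 arrays, with no overlap, while the other groups overlapped each other. The means of Mcm2 were 7.64 ± 0.04, 8.14 ± 0.20 and 8.15 ± 0.10 (SD, n = 3), and those of Mcm5 7.34 ± 0.06, 7.67 ± 0.16 and 7.81 ± 0.18, each for dexa+IL4, the combination and cmB16F1 in turn.

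In the same order, Mcm3 ran from 7.77 to 7.86, from 8.07 to 8.24 and from 8.02 to 8.27. Mcm4 ran from 8.12 to 8.33, from 8.40 to 8.51 and from 8.38 to 8.51. Mcm6 ran from 8.25 to 8.46, from 8.51 to 8.59 and from 8.51 to 8.75. For these genes too the dexa+IL4 arrays were the lowest, but for Mcm4 and Mcm6 the gap was narrow: replicate 2 of dexa+IL4, at 8.33 and 8.46, came within 0.0449 and 0.0424 of the lowest array with conditioned medium. By group means dexa+IL4 was lowest for all 6 genes. The combination lay below cmB16F1 for Mcm2, Mcm5 and Mcm6 and above it for Mcm3, Mcm4 and Rrm2, each time with overlapping arrays.

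**Figure D1:**
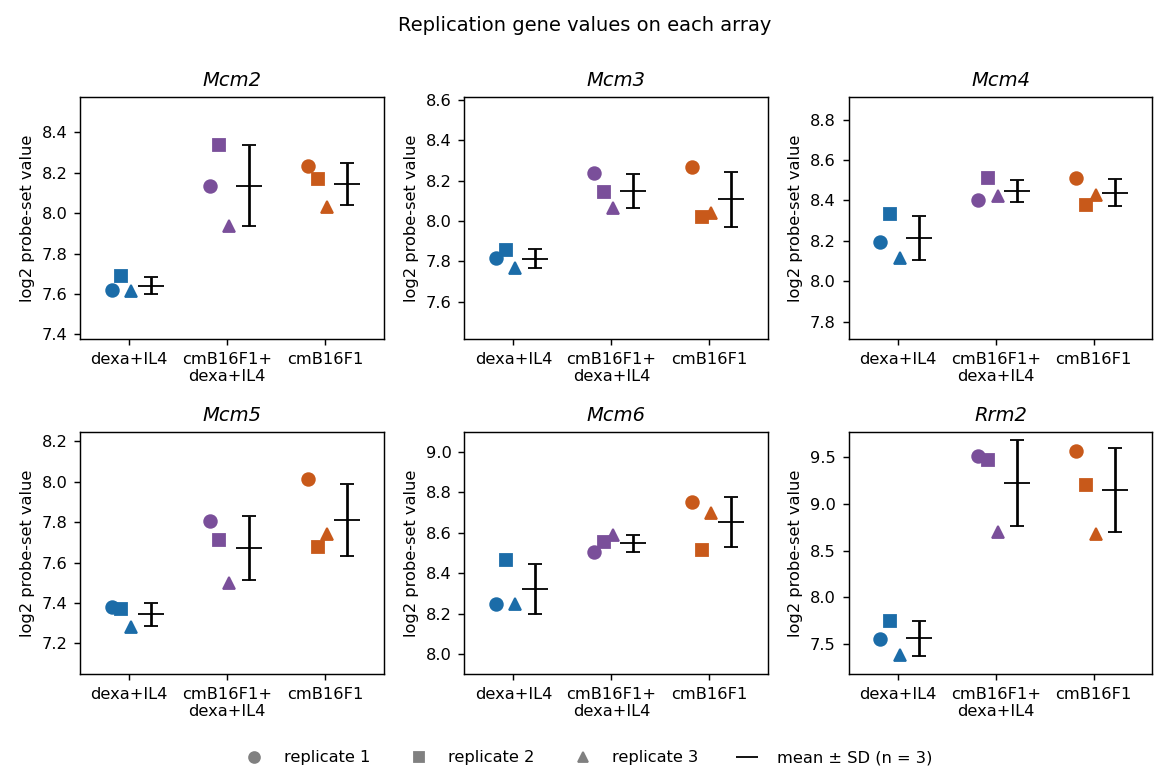
Log2 probe-set values (vertical axes, scaled to each gene) of the 6 replication genes on each array, by group, with the marker shape giving the replicate number and the bar the mean ± SD over 3 arrays. In each panel the 3 dexa+IL4 arrays lie below the 6 arrays with conditioned medium; the Rrm2 panel covers a wider range than the others.

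In the first comparison, the addition of conditioned medium to dexamethasone and IL-4 is read from the combination set against dexa+IL4. Rrm2 was 3.18-fold higher in the combination than in dexa+IL4 (95% confidence interval 2.16 to 4.68). Of the 5 helicase genes, Mcm2 was 1.41-fold higher, Mcm3 1.26-fold, Mcm5 1.26-fold and Mcm4 1.17-fold. Mcm6, at 1.17-fold, did not pass the test. In all, 5 of the 6 genes passed and were higher in the combination, and none was lower, against 8.88% of all clusters called higher and 9% called lower. The arrays did not overlap for 6 of 6 genes, as for 17.8% of all clusters in that direction.

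Rrm2 had a log2 change of 1.67 (SE 0.249; limma, Benjamini-Hochberg adjusted p = 0.00144), the 36th highest of 17810. For Mcm2 it was 0.49 (SE 0.0911, limma adjusted p = 0.00450) and for Mcm3 0.33 (limma adjusted p = 0.00969). Mcm4, at 0.23 (limma adjusted p = 0.0333), and Mcm5, at 0.33 (0.0402), passed by less, and Mcm6 missed the threshold at 0.23, and its 95% confidence interval ran from 0.06 to 0.40 (adjusted p by limma 0.0687). The ranks of the helicase genes ran from 496 to 1534. The median change of the 6 genes was 0.33, against -0.003 over all clusters.

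The calls for Mcm4 and Mcm5 were each lost when any of 5 of the 6 arrays compared was left out. The count was 3, namely Mcm2, Mcm3 and Rrm2, without dexa+IL4 replicate 1 or 3 and without combination replicate 1 or 2. It was 3 again with median centring. Without combination replicate 3 it was 4 (Mcm4 was lost), and without cmB16F1 replicate 2 it was 6, with Mcm6 at an adjusted p of 0.0477. The Mcm5 call was also lost, and that of Mcm6 gained, without dexa+IL4 replicate 2. The Rrm2, Mcm2 and Mcm3 calls passed whichever single array was left out, with limma adjusted p up to 0.00880, 0.0224 and 0.0435. When the arrays of 1 replicate number were left out of all groups, Mcm2 missed the threshold without number 1 (limma adjusted p = 0.0617) and Mcm3 without number 2 (0.0803).

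The hybridization controls, added to the hybridization mix, had a mean log2 value of 10.31 to 10.55 on the combination arrays, above the 10.03 to 10.22 of dexa+IL4 and the 10.02 to 10.28 of cmB16F1. Scaling the arrays to these controls moved the median change of all clusters to -0.26. Of the 6 genes only Rrm2, at 1.41, then passed, although 39.9% of all clusters were called in either direction, against 17.9% before. Mcm2 was at 0.24 (limma adjusted p = 0.116), and Mcm4 and Mcm6 turned to -0.02 and -0.03. Relative to the shifted median the changes were 1.67 for Rrm2, 0.50 for Mcm2, 0.34 for Mcm3, 0.33 for Mcm5 and 0.23 for both Mcm4 and Mcm6.

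In the second comparison, the addition of dexamethasone and IL-4 to conditioned medium is read from the combination set against cmB16F1. None of the 6 genes passed the test, and limma gave an unadjusted p under 0.05 for 0 of them, while 14.1% of all clusters were called in either direction. Rrm2 was at 9.23 in the combination and 9.15 in cmB16F1. Its log2 change of 0.08 had a 95% confidence interval from -0.48 to 0.63, so that the combination could lie between 0.718 and 1.55 times the level of cmB16F1 (limma adjusted p = 0.895). This interval is from the fit with group as the only term, so its width includes the spread between replicate numbers.

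In the same fit, without the replicate number, the helicase genes were bounded more closely. They also varied less than Rrm2 between the arrays of a group. The change of Mcm2 was -0.009 (interval from -0.21 to 0.19), that of Mcm3 0.04 (from -0.12 to 0.20) and that of Mcm4 0.007 (from -0.14 to 0.15). Mcm5 and Mcm6 were lower in the combination by point estimate, at -0.14 (from -0.35 to 0.07) and -0.11 (from -0.28 to 0.07), with limma adjusted p = 0.426 and 0.458. The arrays of the groups overlapped for all 6 genes, whereas 15.5% of all clusters did not overlap with the combination above and 13% with it below. The median change of the 6 genes was -0.0008, beside 0.01 over all clusters. Without single arrays these changes ran from -0.21 to -0.038 for Mcm5, which was nearest 0 without cmB16F1 replicate 1 and -0.051 without combination replicate 3, and from -0.18 (without cmB16F1 replicate 2) to -0.058 (without cmB16F1 replicate 1) for Mcm6. The test does not show that the groups are equal.

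For Rrm2, arrays of equal number lay close together across these groups. The differences of the combination from cmB16F1 at equal number were -0.05, 0.26 and 0.02, much smaller than the distance between arrays numbered 1 and 3 within either group. For Mcm2 they were -0.10, 0.17 and -0.09, and for Mcm5 -0.21, 0.03 and -0.24. With number 2 the combination was higher in 6 of 6 genes, and with number 1 lower in 6 of 6. The share of all clusters in these directions was not counted. In the combination the array median was higher at each of numbers 1, 2 and 3. It was 7.219 against 7.214, 7.248 against 7.222 and 7.215 against 7.205. The same held for the hybridization controls, at 10.31 against 10.02, 10.55 against 10.24 and 10.31 against 10.28. Both measures were thus higher also with number 1, at which the 6 genes were lower. Over all clusters the deviations from the group means correlated at 0.617, 0.565 and 0.662 for numbers 1, 2 and 3 between these groups. Fitting the replicate number as a block left all 6 genes without a call, with limma adjusted p from 0.210 (Mcm5) to 0.959 (Mcm4).

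**Figure D2:**
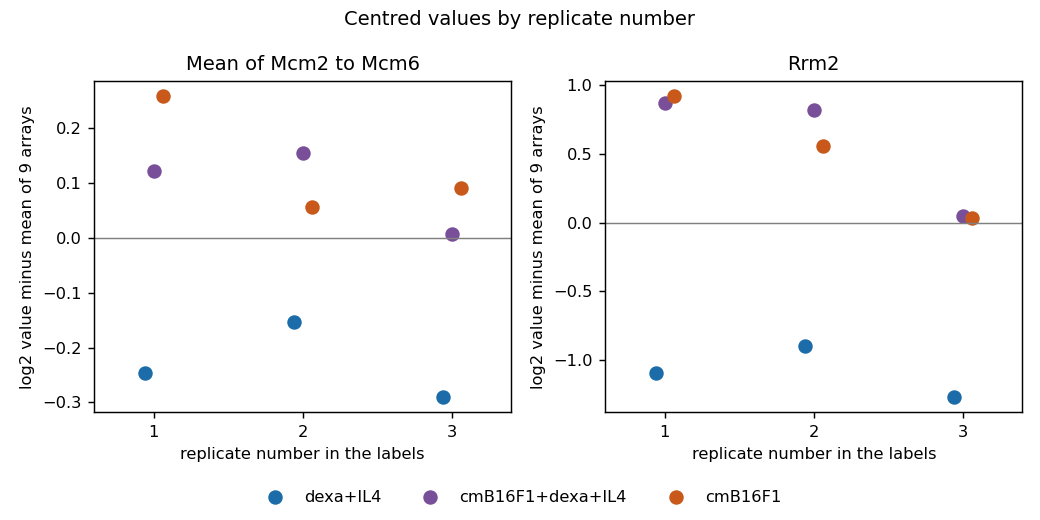
Log2 values minus the mean of all 9 arrays (vertical axes, different scales), for the mean of Mcm2 to Mcm6 (left) and for Rrm2 (right), by the replicate number in the labels (horizontal axes) and coloured by group. The combination and cmB16F1 nearly coincide for Rrm2 at number 3, at 0.05 and 0.03, and both lie far above dexa+IL4, at -1.27.

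The third comparison is that of the single arms, dexa+IL4 and cmB16F1, which differ in every agent. All 6 genes were lower in dexa+IL4 than in cmB16F1 and passed the test, against 12.2% of all clusters called lower and 12.8% called higher. Rrm2 was 3.02-fold lower (95% confidence interval 2.05 to 4.43). Mcm2 was 1.42-fold, Mcm5 1.38-fold, Mcm6 1.26-fold, Mcm3 1.23-fold and Mcm4 1.17-fold lower. No arrays overlapped for 6 of 6 genes, as for 19.6% of all clusters in that direction. This comparison shares its dexa+IL4 arrays with the first and its cmB16F1 arrays with the second.

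Rrm2 had a log2 change of -1.59 (SE 0.249; limma, Benjamini-Hochberg adjusted p = 0.00111), the 82nd lowest of all clusters. Mcm2 was at -0.50 (limma adjusted p = 0.00268) and Mcm5 at -0.47 (0.00547), followed by Mcm6 at -0.34 (0.0104), Mcm3 at -0.29 (0.0134) and Mcm4 at -0.22 (0.0292). The ranks of the helicase genes from the lowest ran from 733 to 1936. The median change was -0.40, against 0.02 over all clusters. The Mcm4 call was lost when replicate 1 or 3 of either group was left out, and the Mcm3 call without dexa+IL4 replicate 3, which left 4 to 6 genes called when any single array was left out. With scaling to the hybridization controls 3 genes passed, Rrm2, Mcm2 and Mcm5, and all 6 remained lower in dexa+IL4, while the share of all clusters called in either direction went from 25% to 10.6%.

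**Figure D3:**
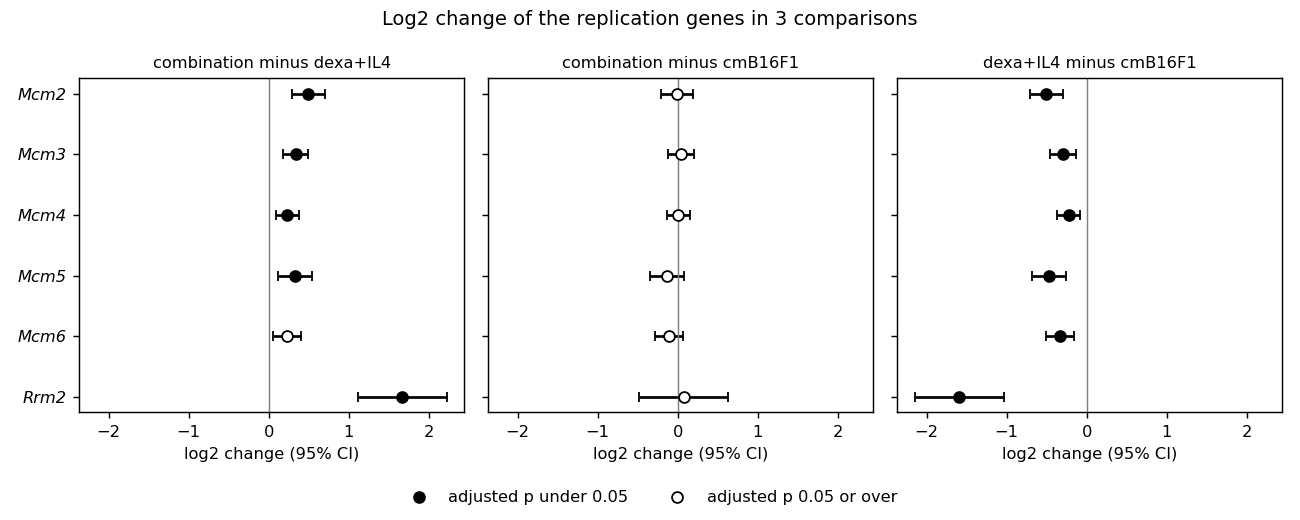
Log2 change of each gene (horizontal axes) with its 95% confidence interval from limma in the 3 comparisons; filled points passed the test at an adjusted p of 0.05. The changes are above 0 for all 6 genes in the first comparison and below 0 in the last, and all 6 intervals include 0 in the middle panel.

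**Figure D4:**
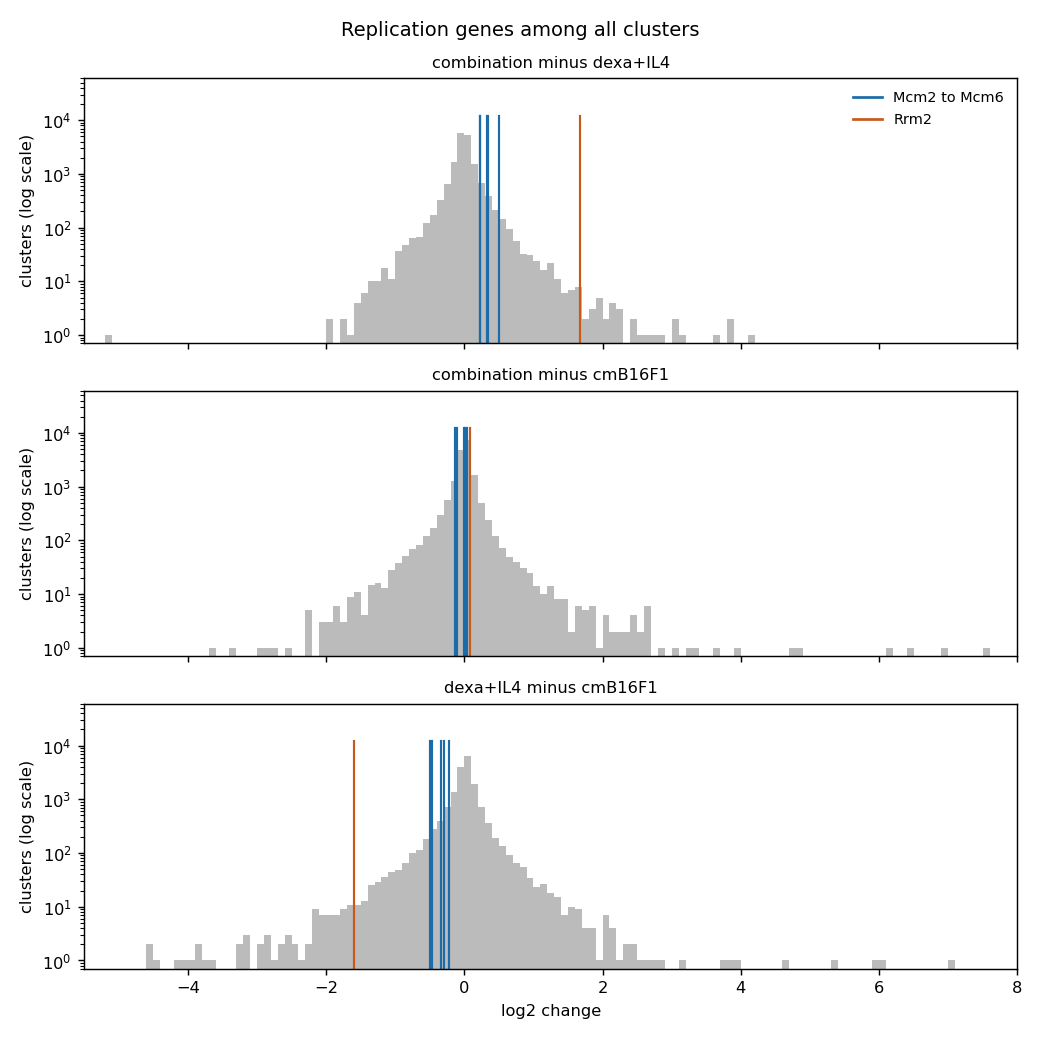
Number of clusters (vertical axes, log scale) by log2 change (horizontal axis, bins of 0.1) for all 17810 clusters in the 3 comparisons, with lines for Mcm2 to Mcm6 and for Rrm2. Rrm2 stands 36th from the top in the first comparison and 82nd from the bottom in the last, while in both of these the helicase genes lie on the shoulder of the distribution.

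The genes shared the low level in dexa+IL4 but not the size of the difference. In the first comparison the confidence interval of Rrm2, from 1.11 to 2.23, lay above that of every helicase gene, the highest of which ended at 0.70 (Mcm2). In the third, the Rrm2 interval from -2.15 to -1.04 lay below those of all 5, which reached down to -0.71. Probe sets compress differences to unequal degrees, and the difference between the genes was not tested. Rrm2 also had the widest spread within groups, with an SD of up to 0.46, while that of the helicase genes was at most 0.20.

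Within groups the genes were often highest or lowest on the same arrays. How often these arrays were the extreme over all clusters was not counted, so the counts show nothing particular to the genes. In cmB16F1, replicate 1 was the highest array for 6 of 6 genes. In dexa+IL4, replicate 2 was highest for 5 and replicate 3 lowest for 5. In the combination, replicate 3 was lowest for 4 genes, but Mcm6 was highest there and Mcm4 was lowest on replicate 1.

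RNA measures of the same arrays are given beside these results. For 18S ribosomal RNA, the probe set at the 3' end read 9.17 to 9.29 on dexa+IL4 arrays, 9.39 to 10.4 on combination arrays and 9.24 to 10.6 on cmB16F1 arrays. It was thus lowest in the group in which the replication genes were low, apart from an overlap with cmB16F1. Within the groups with conditioned medium the order differed. There replicate 1 had the lowest 18S value, 9.39 in the combination and 9.24 in cmB16F1, and the highest Rrm2 value, 9.52 and 9.57. Beta-actin read higher at its 3' than at its 5' set by amounts that overlapped between all groups, 0.92 to 1.12, 0.95 to 1.39 and 0.73 to 1.13 on the log2 scale. Their part in the differences of the replication genes was not tested.

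The clusters whose pattern was most like that of the 6 genes were found by the root mean square difference, over the 9 arrays, between each cluster's centred log2 values and the mean centred profile of the genes. Mm.180013 was nearest, at 0.0538, with means of 9.28 ± 0.07, 9.74 ± 0.22 and 9.80 ± 0.14 (SD, n = 3) for dexa+IL4, the combination and cmB16F1. Mm.333096 followed at 0.0695, with 7.48 ± 0.09, 7.91 ± 0.06 and 7.99 ± 0.10. The files do not pair these numbers with gene names. By the same measure Mcm2 lay 0.0714 from the mean profile it helped to form and Rrm2, whose differences were much larger, 0.552. Mcm5 lay 0.103 from it, Mcm3 0.128, Mcm6 0.173 and Mcm4 0.174. Each of the 6 genes was thus farther from the mean profile than Mm.333096, and the likeness is to that mean only.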

How the data were processed

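Per the labels' protocols, RNA was isolated with an RNeasy kit, and biotin-labelled cRNA was hybridised to 1-colour Affymetrix arrays. The deposited log2 values, 1 column for each of 9 samples, had been normalized between arrays by the authors. That the scale is log2 was inferred from the range of 5.86 to 14.2. How the authors corrected background, normalized and summarised probes, and with which chip definition, is not stated by labels or headers. Of 17931 probe sets, 64 were controls. Where a cluster had 2 sets (57 clusters), the one with the higher mean was used, leaving 17810 clusters.

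Groups were compared with limma 3.58.1 in R 4.3.3 (lmFit, eBayes with a mean-variance trend) on all 9 arrays with group as the only term (6 residual and 3.85 prior degrees of freedom). P-values were Benjamini-Hochberg adjusted over 17829 features (clusters and mouse control sets), with a threshold of 0.05 and no filter. With 3 arrays in each group, their number limits the precision. The procedure was tested on simulated data with independent noise on each array. Those data lacked the deviations that arrays of equal number share, so the test could not show their effect. The members, lists and tests were chosen with earlier results of these data known. All members found were named, and the 2 clusters with the most similar profile. Further lists of replication, mitosis and cell-type marker genes were not run, because no table used here pairs cluster numbers with names. Replicate numbers of the labels were taken to pair the combination and cmB16F1, since each correlation of deviations exceeded 0.1. The main test and its intervals did not use this pairing, and the replicate number entered only as a block among the alternatives. The correlations of dexa+IL4 with the combination (0.224, -0.0672 and 0.116) and with cmB16F1 (0.236, -0.0234 and 0.167) did not all exceed it. Alternatives covered normalization, a filter on dim sets, the variance model, the replicate block and arrays left out.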

Additional observations from a re-analysis of the deposited data

How the results depend on the processing

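Each result was recomputed under 22 alternatives, of which 3, leaving out 1 replicate number from all groups at once, were chosen after seeing the data. For the combination against dexa+IL4, the 5 calls became 3 with median centring and 1 with scaling to the hybridization controls, which turned Mcm4 (-0.024) and Mcm6 (-0.027). Leaving out arrays gave 3 to 6 calls for single arrays and 2, 3 and 3 without replicate numbers 1, 2 and 3. Of all clusters, 17.9% were called in this comparison, 19.4% with median centring, 39.9% with the control scaling, 11.5% to 18.8% without a single array and 9.3%, 7.4% and 13.4% without the numbers. For the single arms, the 6 calls became 3 with scaling to the hybridization controls, 4 to 6 without a single array and 2, 5 and 3 without numbers 1, 2 and 3. The share of all clusters called was 25%, then 10.6%, 18.1% to 26.5%, and 15.5%, 14.1% and 17.7%. The count for the combination against cmB16F1 was 0 under all 22. With the replicate number as a block the counts were 5, 0 and 6, and the block changed no call. The Rrm2 calls in the comparisons of dexa+IL4 with the combination and with cmB16F1 passed under all 22, with changes from 1.41 to 1.94 and from -1.83 to -1.38.

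Between the combination and cmB16F1 the direction of small changes turned. Mcm2 was at 0.0075 with quantile normalization and Mcm4 at -0.0066 with median centring. Scaled to the hybridization controls (median of all clusters -0.20), Mcm3 was at -0.17, Mcm4 at -0.20 and Rrm2 at -0.13. With that scaling Mcm2, Mcm5 and Mcm6 kept their direction and lay lower, at -0.22, -0.35 and -0.32. Mcm5 came near the threshold (limma adjusted p = 0.0564). Relative to the shifted median the changes were 0.028 for Mcm3, -0.0059 for Mcm4 and 0.065 for Rrm2. On that footing Mcm2 was at -0.022, Mcm5 at -0.15 and Mcm6 at -0.12, as with median centring. Without single arrays the changes ran from -0.11 to 0.090 for Mcm2, from -0.0035 to 0.12 for Mcm3, from -0.024 to 0.044 for Mcm4 and from -0.16 to 0.34 for Rrm2. Without a whole number Mcm2 was at 0.037 or 0.033 (numbers 1 and 3), Mcm4 ran from -0.055 to 0.065, and without number 2 Mcm3 was at -0.00014 and Rrm2 at -0.015. The cause was not tested.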
